A study of Rattus norvegicus with 10 samples.

Results

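Pyruvate dehydrogenase and the citric acid cycle were represented by 9 genes in rat liver, taken from the deposited table by their symbols: Pdha1, Dlat, Cs, Idh3a, Ogdh, Suclg1, Sucla2, Fh and Mdh2. All 9 were found among the 12555 genes of the table, and all 9 passed the filter on low counts. The series holds 10 RNA sequencing libraries of wild-type rats. Restricted 1 to 5 came from offspring whose dams received 30% fewer calories in gestation, called SGA (small for gestational age) in the library names. Normal 1 to 5 came from offspring whose dams ate a normal diet, called AGA in the library names. The labels give no strain, sex, age, litter or feeding state, and they do not say whether each library came from a separate animal. The p-values therefore measure the spread between these libraries, which may in part be technical. The labels name a hepatocyte cell line, whereas the design text of the series names liver tissue.

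Pyruvate, the end product of glycolysis, enters the mitochondrion and is turned into acetyl-CoA by the pyruvate dehydrogenase complex. Citrate synthase joins acetyl-CoA to oxaloacetate, and the cycle then oxidises the product step by step back to oxaloacetate, giving NADH for the respiratory chain. In liver the same enzymes also feed gluconeogenesis and lipid synthesis, and the complex is switched off by kinases that phosphorylate its first subunit when fatty acids are the main fuel.

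Dlat and Mdh2 fell in the restricted group, and the other 7 genes did not pass the test. Dlat, the acetyltransferase core of the pyruvate dehydrogenase complex, fell by 27.5%, and Mdh2, the mitochondrial malate dehydrogenase that closes the cycle, fell by 23.7%. That is 2 of 9 genes called by the edgeR quasi-likelihood test at an adjusted p of 0.05, against 4.09% of the 12367 genes tested. Both were lower, and 2.22% of all genes tested were called lower. The median log2 fold change of restricted minus normal over the 9 genes was −0.08, against 0.01 over all genes tested. Suclg1 was the one gene with a positive value.

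**Figure D1:**
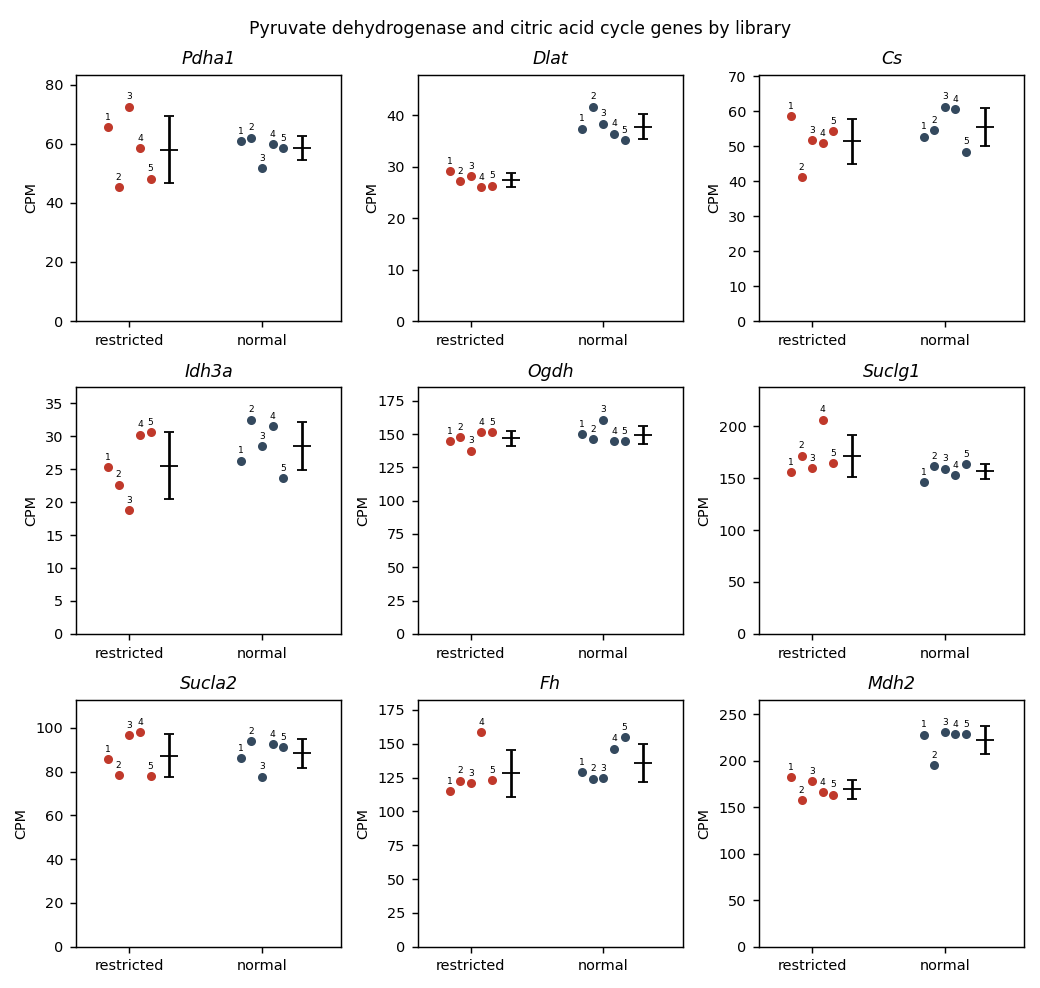
CPM (counts scaled to a common library size with TMM factors) of the 9 genes in each library, with restricted libraries on the left and normal libraries on the right of each panel. Points are libraries numbered by replicate, and bars give the mean ± SD of 5. Dlat and Mdh2 are the panels in which all 5 restricted libraries lie below all 5 normal libraries. Groups do not overlap, in either direction, for 6.35% of all genes tested.

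Some facts of the libraries bear on these results. Total counts ran from 14936156 to 22104957. Hepatocyte markers were abundant, with Alb at 99848 to 155972 CPM, although Serpina1 had 0.459 to 1.44 CPM, and 1 of 10 passed the test, Ttr, which was lower in restricted livers (edgeR adjusted p 0.0497). Markers of other liver cells were also present, and no measured marker of another cell type was at 0 in any library. The summed level of 10 Kupffer cell markers was 948 to 2329 CPM in the restricted libraries and 844 to 1113 CPM in the normal libraries. All 10 log2 fold changes were positive and 0 passed edgeR. At an unadjusted edgeR p of 0.05, 6 were higher, where 10.2% of all genes tested were higher. The sum was highest in restricted 2 (1791 CPM) and restricted 5 (2329 CPM). The corresponding sums were 393 to 479 CPM and 415 to 454 CPM for 7 endothelial markers, and 649.9 to 1688 CPM and 973 to 1268 CPM for 8 stellate markers. They were 12.8 to 19.5 CPM and 12.7 to 18.5 CPM for 5 cholangiocyte markers, 24.5 to 112 CPM and 23.4 to 41.0 CPM for 6 lymphocyte markers, and 545 to 2187 CPM and 689 to 1100.0 CPM for 4 erythroid markers. The Y-linked gene Kdm5d had 0 CPM in restricted 1 to 4, 19.3 CPM in restricted 5 and 18.9 to 25.6 CPM in the normal libraries. Cyp2c13, expressed mainly in male rat liver, had 1.29 to 8.29 CPM in restricted 1 to 4, 1035 CPM in restricted 5 and 154 to 2203 CPM in the normal libraries. Cux2, a gene of female liver in rodents, showed 13.6 to 24.0 CPM in restricted 1 to 4, 1.74 CPM in restricted 5 and 1.07 to 5.48 CPM in the normal libraries. Sex as read from Kdm5d, Cyp2c13 and Cux2 therefore cannot be told apart from maternal diet, except through restricted 5. Cyp2c12, the other sex-biased gene read, had 298 to 3049 CPM over all libraries. Its highest value was in normal 1, which carried Kdm5d, so Cyp2c12 did not split the libraries as Kdm5d, Cyp2c13 and Cux2 did. It did not pass in the authors' deposited table (log2 fold change 0.47, adjusted p 0.722).

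The complex begins with Pdha1, the X-linked alpha subunit of the decarboxylase and the subunit that the kinases phosphorylate. Pdha1 had 65.5, 45.4, 72.6, 58.6 and 48.2 CPM in restricted 1 to 5, against 60.8, 62.1, 51.7, 59.8 and 58.4 CPM in normal 1 to 5. The groups overlapped, and the restricted libraries spread on both sides of the normal range, with 2 above it and 2 below it. The means were 58.1 ± 11.4 CPM in restricted livers and 58.6 ± 4.07 CPM in normal livers (SD, n = 5 each). The log2 fold change was −0.01 ± 0.13 (SE; edgeR adjusted p 0.969), with a 95% interval from −17.9% to 19.6%.

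Dlat carries the lipoyl groups that take the acetyl unit from the decarboxylase and hand it to coenzyme A. Dlat had 29.2, 27.2, 28.2, 26.0 and 26.4 CPM in restricted 1 to 5, against 37.4, 41.7, 38.4, 36.5 and 35.1 CPM in normal 1 to 5. All 5 restricted libraries lay below every normal library, and the spread within each group was narrow. Groups that do not overlap were found for 6.35% of all genes tested. Dlat averaged 27.4 ± 1.30 CPM in restricted livers and 37.8 ± 2.48 CPM in normal livers (SD, n = 5 each). This gave a log2 fold change of −0.46 ± 0.08 (SE; edgeR adjusted p 0.00858) and a 95% interval of −0.63 to −0.30, which ranked 70th by p among the genes tested. In bulk liver RNA, fewer cells that express a gene and less of its RNA per cell cannot be told apart. The summed Kupffer cell markers of restricted 1 (948 CPM) and restricted 3 (1002 CPM) lay within the normal range, and Dlat was also below the normal range in both. Other marker sums of these 2 libraries were above the normal range, with erythroid sums of 1186 CPM in restricted 1 and 2187 CPM in restricted 3 and a stellate sum of 1688 CPM in restricted 3. The part of cell composition in the fall of Dlat and Mdh2 was not tested. Restricted 5 alone, which carried Kdm5d, differed in Dlat by −0.52 on the log2 scale from the 5 normal libraries, a value of 1 library with no spread of its own, given without a test. With Kdm5d as a covariate, a fit that again rests largely on restricted 5, the log2 fold change was −0.51 (edgeR adjusted p 0.101). In the authors' deposited table Dlat had a log2 fold change of −0.46 and an adjusted p of 9.06e-06. An adjusted p below 0.05 was given to 8.48% of genes in the authors' deposited table. The authors also required an absolute log2 fold change above 1, which Dlat did not reach, and 3.82% of genes in the authors' deposited table met that together with p below 0.05.

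The start regions of Pdha1 and Dlat are shown here because Dlat fell while its partner Pdha1 did not pass the test. That of Mdh2 is shown because Mdh2 also fell. Each runs from 250 bases before to 50 bases after the annotated RefSeq start in build GRCr8, printed 5′ to 3′ on the gene's strand. RefSeq start regions were found for 8 of the 9 genes, without Idh3a. Capitals mark matches on either strand to GCGCANGCG (the core of the NRF1 motif), CCGGAAG (ETS factors), CTCGCGAG (the core of a palindromic promoter motif) or TCAAGGTCA (the estrogen-related receptors).
Pdha1, chrX:38508908-38509207, plus strand: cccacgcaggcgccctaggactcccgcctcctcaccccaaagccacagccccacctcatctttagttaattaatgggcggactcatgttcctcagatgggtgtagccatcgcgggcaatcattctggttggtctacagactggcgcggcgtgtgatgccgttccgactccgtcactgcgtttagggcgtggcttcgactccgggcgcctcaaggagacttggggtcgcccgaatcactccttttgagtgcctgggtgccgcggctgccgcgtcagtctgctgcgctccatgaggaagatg
Dlat, chr8:59900769-59901068, minus strand: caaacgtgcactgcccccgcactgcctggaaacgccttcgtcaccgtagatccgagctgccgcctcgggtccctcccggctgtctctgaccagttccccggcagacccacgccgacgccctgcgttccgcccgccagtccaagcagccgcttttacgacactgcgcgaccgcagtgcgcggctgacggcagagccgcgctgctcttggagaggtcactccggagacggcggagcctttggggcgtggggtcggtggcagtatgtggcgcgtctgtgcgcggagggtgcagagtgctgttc
Mdh2, chr12:26543792-26544091, minus strand: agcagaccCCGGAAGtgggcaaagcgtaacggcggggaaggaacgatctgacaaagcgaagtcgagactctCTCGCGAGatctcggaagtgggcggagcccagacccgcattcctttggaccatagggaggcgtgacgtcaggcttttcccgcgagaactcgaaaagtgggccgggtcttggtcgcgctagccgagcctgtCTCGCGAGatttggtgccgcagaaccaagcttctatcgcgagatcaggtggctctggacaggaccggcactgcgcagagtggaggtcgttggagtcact

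The Mdh2 region held 2 copies of CTCGCGAG, starting at positions −179 and −49 relative to the start, and 1 copy of CCGGAAG at position −242, and these matches did not overlap. CTCGCGAG was added to the search after the sequence had been read. It occurs in 0.827% of 27457 start regions of the same length, 1 region per gene, and CCGGAAG in 9.22%. The Dlat and Pdha1 regions held no match to any of the 4 motifs. Of the other start regions, that of Sucla2 held 1 copy of GCGCANGCG at position −38, a motif present in 6.26% of all regions. TCAAGGTCA, present in 0.412% of all regions, occurred in none of the 8.

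Partners of the complex were read from 6 genes for its other subunits and for lipoylation, and 0 of 6 passed edgeR, with 1 lower at an unadjusted p of 0.05. At that unadjusted threshold 20.1% of all genes tested passed. All 6 values lay below 0, and their median was −0.15 on the log2 scale. Pdhb, the beta subunit of the decarboxylase, averaged 94.7 ± 16.8 CPM in restricted livers and 108.8 ± 11.04 CPM in normal livers (SD, n = 5 each; edgeR adjusted p 0.383). Dld, the dihydrolipoamide dehydrogenase shared with the 2-oxoglutarate complex, averaged 117.7 ± 17.6 CPM in restricted livers and 142 ± 5.35 CPM in normal livers (SD, n = 5 each; edgeR adjusted p 0.178). Lipt1, a lipoyl transferase, averaged 1.26 ± 0.325 CPM in restricted livers and 1.78 ± 0.439 CPM in normal livers (SD, n = 5 each; edgeR adjusted p 0.352). Pdha1, Pdhb and Dld shared one feature within the restricted group: restricted 1 and 3 had higher values than restricted 2 and 5 in all 3 genes, and Dlat did so too by a small margin. Pdhb had 113 and 114 CPM in restricted 1 and 3, against 81.9 and 82.2 CPM in restricted 2 and 5. Restricted 2 and 5 were also the libraries with the highest summed Kupffer cell markers, whose part in these values was not tested.

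Because Dlat and Pdha1 encode partners of the same complex, their ratio was taken within each library, where the scaling of the library cancels. The ratio of Dlat to Pdha1 on the FPKM scale was 1.01, 1.37, 0.885, 1.01 and 1.24 in restricted 1 to 5, against 1.40, 1.53, 1.69, 1.39 and 1.37 in normal 1 to 5. Restricted 2 came nearest to the lowest normal library, and the groups did not overlap. The mean ratio was 1.10 ± 0.195 in restricted livers and 1.48 ± 0.136 in normal livers (SD, n = 5 each). Their log2 difference was −0.43 (two-sided exact permutation test, p 0.00794, the smallest that 5 against 5 libraries can give; 0.0317 adjusted over 4 ratios). With 1 normal library left out, the adjusted p was 0.0635 for each of the 5 normal libraries, while the log2 difference stayed between −0.46 and −0.38. The ratio was not fitted with Kdm5d as a covariate, so the part of sex in it was not tested. In restricted 5, which carried Kdm5d, the log2 deviation from the normal mean was −0.28 for Pdha1 and −0.52 for Dlat.

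**Figure D2:**
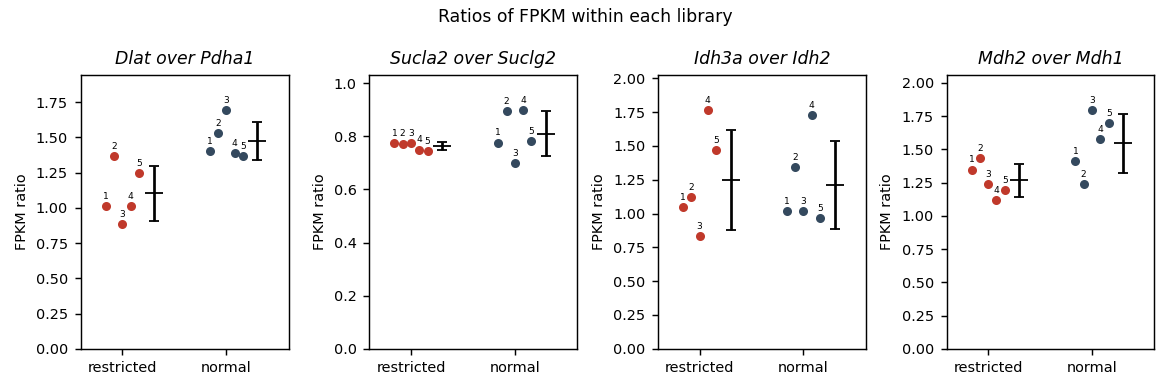
Ratios of FPKM (fragments scaled by gene length and library size) of 2 genes within each library, with restricted libraries on the left and normal libraries on the right. Points are libraries numbered by replicate, and bars give the mean ± SD of 5. Dlat over Pdha1 is the one ratio whose groups do not overlap.

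Kinases and phosphatases set the activity of the complex. Of 7 such genes edgeR called 1 lower and 0 higher, against 2.22% called lower and 1.87% called higher of all genes tested. Pdk2, a pyruvate dehydrogenase kinase with high levels in liver, had 143, 139, 148, 124 and 104 CPM in restricted 1 to 5, against 180.3, 186, 184, 176 and 185 CPM in normal 1 to 5. All 5 restricted libraries lay below all normal libraries, and restricted 5 was the lowest. Of all genes tested, 6.35% had groups that did not overlap. Pdk2 averaged 132 ± 17.7 CPM in restricted livers and 182 ± 4.03 CPM in normal livers (SD, n = 5 each), a log2 fold change of −0.47 ± 0.10 (SE; edgeR adjusted p 0.0234). With Kdm5d as a covariate the log2 fold change of Pdk2 was −0.82 (edgeR adjusted p 0.0376). The diet difference in that fit rests largely on restricted 5, so its p does not show that the fall is separate from sex. The value of restricted 5 alone against the normal libraries was −0.80, given without a test because it is 1 library. Without 1 library the adjusted p reached 0.0528 without restricted 4, 0.0554 without normal 3, 0.0548 without normal 4 and 0.0625 without normal 5.

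Pdk4, the kinase known to be induced by fasting and fatty acids, had 662, 331, 799, 689 and 1092 CPM in restricted 1 to 5, against 419, 366, 161, 348 and 391 CPM in normal 1 to 5. Restricted 2 lay within the normal range and the other restricted libraries lay above it. Its log2 fold change of 1.08 ± 0.32 did not pass (SE; edgeR adjusted p 0.0928), whereas DESeq2 gave an adjusted p of 0.00449 and edgeR without restricted 2 gave 0.0361. In the authors' deposited table Pdk4 had a log2 fold change of 1.08 and an adjusted p of 0.00459. It thus met their requirement of p below 0.05 and an absolute log2 fold change above 1, as did 3.82% of genes in that table. Pdk1 averaged 31.4 ± 6.27 CPM in restricted livers and 38.1 ± 2.37 CPM in normal livers (SD, n = 5 each; edgeR adjusted p 0.240). Pdk3 was low, with 2.31 ± 1.37 CPM in restricted livers and 2.59 ± 0.495 CPM in normal livers (SD, n = 5 each; edgeR adjusted p 0.847). Per length, Pdk4 was the most abundant kinase in both groups, with 103 ± 41.4 FPKM in restricted livers and 48.1 ± 14.8 FPKM in normal livers, followed by Pdk2 with 28.5 ± 4.11 FPKM in restricted livers and 38.8 ± 0.483 FPKM in normal livers. The 2 phosphatase genes and the phosphatase regulator gene Pdpr had edgeR adjusted p of 0.617 to 0.998.

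**Figure D3:**
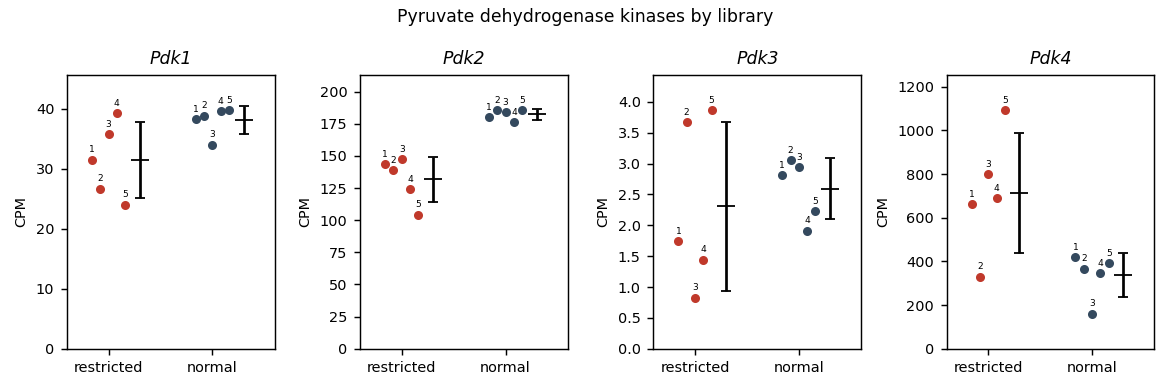
CPM of the 4 pyruvate dehydrogenase kinase genes in each library, with restricted libraries on the left and normal libraries on the right. Points are libraries numbered by replicate, and bars give the mean ± SD of 5. Pdk2 is lower in all 5 restricted libraries, and Pdk4 is above the normal range in 4 of 5.

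Pyruvate entry was read from the carrier genes Mpc1 and Mpc2 and from Pc, the carboxylase that makes oxaloacetate from pyruvate, and 0 of 3 passed edgeR. At an unadjusted p of 0.05, 1 was higher and 1 lower, against 10.2% higher and 9.93% lower of all genes tested. Mpc1 averaged 100.1 ± 14.0 CPM in restricted livers and 120.0 ± 12.2 CPM in normal livers (SD, n = 5 each; edgeR adjusted p 0.208). Its partner Mpc2 averaged 111 ± 26.9 CPM in restricted livers and 85.1 ± 7.97 CPM in normal livers (SD, n = 5 each; edgeR adjusted p 0.161). Pc averaged 632 ± 71.1 CPM in restricted livers and 643 ± 94.7 CPM in normal livers (SD, n = 5 each; edgeR adjusted p 0.934).

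The first span of the cycle, from citrate to 2-oxoglutarate, held no called gene among those described here. Cs, citrate synthase, had 58.7, 41.2, 51.8, 51.0 and 54.4 CPM in restricted 1 to 5, against 52.8, 54.5, 61.3, 60.6 and 48.5 CPM in normal 1 to 5. The groups overlapped, and restricted 2 was the lowest library. The log2 fold change of Cs was −0.11 ± 0.10 (SE; edgeR adjusted p 0.585), with a 95% interval from −20.9% to 8.27%.

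Idh3a, the catalytic subunit of the NAD-dependent isocitrate dehydrogenase, had 25.3, 22.7, 18.7, 30.2 and 30.6 CPM in restricted 1 to 5. It had 26.3, 32.5, 28.4, 31.5 and 23.7 CPM in normal 1 to 5. The groups overlapped, and restricted 3 was the lowest. The log2 fold change of Idh3a was −0.16 ± 0.14 (SE; edgeR adjusted p 0.556), with a 95% interval from −27.5% to 10.6%. In restricted 5 alone, against the normal libraries, the value was 0.10, and with Kdm5d as a covariate it was 0.14. Idh3g, a regulatory subunit of the same enzyme, averaged 23.8 ± 1.11 CPM in restricted livers and 28.6 ± 1.45 CPM in normal livers (SD, n = 5 each). Its log2 fold change of −0.26 ± 0.08 did not pass (SE; edgeR adjusted p 0.0785; DESeq2 adjusted p 0.0381). Idh3b, its other regulatory subunit, averaged 90.4 ± 7.45 CPM in restricted livers and 104.2 ± 2.38 CPM in normal livers (SD, n = 5 each; edgeR adjusted p 0.177). The ratio of Idh3a to Idh2, the NADP-dependent enzyme of the same step, was 1.25 ± 0.369 in restricted livers and 1.21 ± 0.324 in normal livers on the FPKM scale (SD, n = 5 each). The log2 difference of that ratio was 0.03 (two-sided exact permutation test, p 0.929, also 0.929 adjusted over 4 ratios).

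The second span, from 2-oxoglutarate to succinate, also held no called gene. Ogdh, the first enzyme of the 2-oxoglutarate dehydrogenase complex, had 145, 148, 138, 152 and 152 CPM in restricted 1 to 5, against 149.7, 146, 161, 145 and 145 CPM in normal 1 to 5. The libraries of both groups lay close together, and restricted 3 was the lowest. The log2 fold change of Ogdh was −0.02 ± 0.07 (SE; edgeR adjusted p 0.888), with a 95% interval from −12.1% to 9.98%. Dlst, the succinyltransferase core of that complex and the counterpart of Dlat, averaged 138 ± 7.20 CPM in restricted livers and 168 ± 20.8 CPM in normal livers (SD, n = 5 each; edgeR adjusted p 0.133).

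Suclg1 encodes the alpha subunit of succinyl-CoA ligase, which pairs with Sucla2 in the ATP-forming enzyme and with Suclg2 in the GTP-forming enzyme. Suclg1 had 156, 172, 159, 206 and 164 CPM in restricted 1 to 5, against 146, 161, 159, 153 and 163 CPM in normal 1 to 5. Restricted 4 was the highest, and 3 of 5 restricted libraries lay above the normal range. The difference was 0.13 ± 0.09 on the log2 scale (SE; edgeR adjusted p 0.454), with a 95% interval from −4.78% to 26.1%. Sucla2 had 85.7, 78.6, 96.9, 98.0 and 77.8 CPM in restricted 1 to 5, against 86.2, 93.9, 77.8, 92.6 and 91.4 CPM in normal 1 to 5. The groups overlapped, with restricted 3 and 4 above the normal range. The difference was −0.02 ± 0.09 on the log2 scale (SE; edgeR adjusted p 0.945), with a 95% interval from −14.2% to 14.0%. The ratio of Sucla2 to Suclg2 was 0.763 ± 0.0142 in restricted livers and 0.810 ± 0.0854 in normal livers on the FPKM scale (SD, n = 5 each; two-sided exact permutation test, p 0.286, 0.381 adjusted over 4 ratios). The 5 restricted ratios lay between 0.745 and 0.774. Without normal 3, which had a ratio of 0.698, the log2 difference was −0.13 and the adjusted p was 0.0317 in the exact permutation test.

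The last span runs from succinate to oxaloacetate. The 4 succinate dehydrogenase genes, whose enzyme is also respiratory complex II, had log2 fold changes of −0.14 to −0.08 with edgeR adjusted p of 0.356 to 0.719. Fh, fumarase, had 115, 123, 121, 158 and 123 CPM in restricted 1 to 5, against 129, 124, 124, 146 and 155 CPM in normal 1 to 5. Of the restricted libraries 4 lay below the normal range, and restricted 4 lay above it. The log2 fold change of Fh was −0.08 ± 0.11 (SE; edgeR adjusted p 0.702), with a 95% interval from −19.8% to 10.9%.

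Mdh2 had 182, 158, 178, 166 and 164 CPM in restricted 1 to 5, against 228, 195, 230.5, 229 and 229 CPM in normal 1 to 5. All 5 restricted libraries lay below all normal libraries, and normal 2 stood apart from the other normal libraries at the low side. Groups without overlap, in either direction, were found for 6.35% of all genes tested. Mdh2 averaged 169.5 ± 10.1 CPM in restricted livers and 222 ± 15.1 CPM in normal livers (SD, n = 5 each). The log2 fold change of Mdh2 was −0.39 ± 0.08 (SE; edgeR adjusted p 0.0248) with a 95% interval of −0.57 to −0.21, and the authors' deposited table gave −0.39 with an adjusted p of 8.53e-05. The edgeR adjusted p was 0.0688 without restricted 2, 0.0504 without restricted 4, 0.0634 without normal 3, 0.0671 without normal 4 and 0.0693 without normal 5, with log2 fold changes of −0.43 to −0.37 over all 10 libraries left out. In restricted 5 alone, again without a test, the log2 difference from the normal libraries was −0.44. With Kdm5d as a covariate the log2 fold change was −0.45 (edgeR adjusted p 0.167). The ratio of Mdh2 to its cytosolic counterpart Mdh1 was 1.27 ± 0.125 in restricted livers and 1.54 ± 0.221 in normal livers on the FPKM scale (SD, n = 5 each). The groups overlapped, and the log2 difference was −0.28 (two-sided exact permutation test, p 0.0476, 0.0952 adjusted over 4 ratios).

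**Figure D4:**
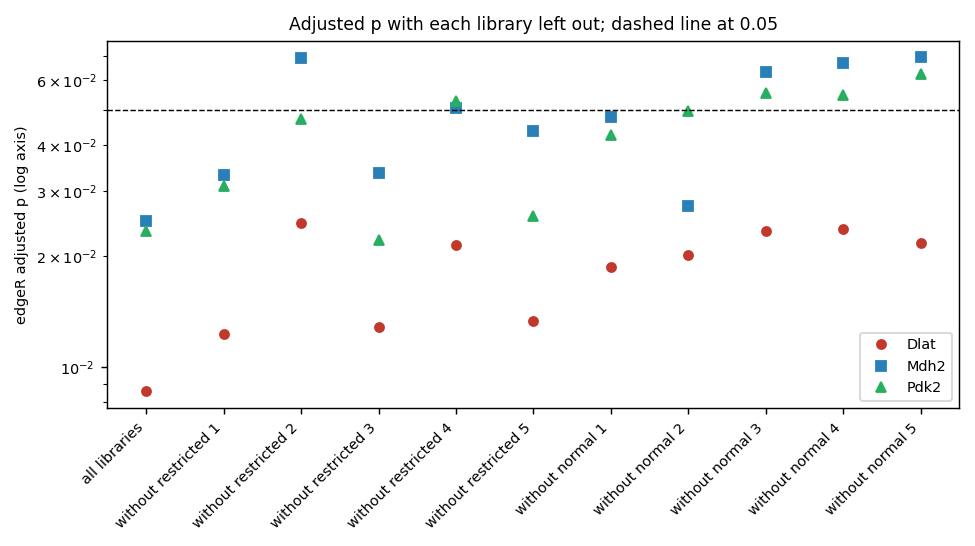
Adjusted p of edgeR on a log axis for Dlat, Mdh2 and Pdk2, with all libraries and with each of the 10 libraries left out. The dashed line marks 0.05. Dlat stays below the line in all 10 fits, at 0.0123 to 0.0246, whereas Mdh2 passes in 5 and Pdk2 in 6.

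By level per length, Mdh2 and Fh were the most abundant of the 9 genes, and Cs and Pdha1 the least. In restricted livers the means were 79.1 ± 7.52 FPKM for Fh, 68.1 ± 4.73 for Mdh2, 33.5 ± 3.17 for Suclg1, 22.2 ± 1.02 for Sucla2, 10.4 ± 2.12 for Idh3a and 8.93 ± 0.788 for Ogdh (SD, n = 5). They were 7.37 ± 0.640 FPKM for Dlat, 6.80 ± 1.09 for Pdha1 and 5.91 ± 0.747 for Cs. In normal livers the means were 87.9 ± 6.99 FPKM for Mdh2, 82.9 ± 8.43 for Fh, 30.2 ± 0.711 for Suclg1, 22.3 ± 1.67 for Sucla2, 11.5 ± 1.53 for Idh3a and 10.01 ± 0.650 for Dlat (SD, n = 5). They were 8.93 ± 0.463 FPKM for Ogdh, 6.81 ± 0.529 for Pdha1 and 6.30 ± 0.681 for Cs. In normal livers, Mdh2 and Fh, Idh3a and Dlat, and Pdha1 and Cs were neighbours that differed by less than the larger of their SDs, and in restricted livers so were Idh3a and Ogdh, Dlat and Pdha1, and Pdha1 and Cs. Mdh2 ranked second to Fh in restricted livers and first in normal livers, and Dlat ranked below Ogdh in restricted livers and above it in normal livers. The order rests on the authors' gene lengths, which the FPKM and counts imply to be 1.63 kb for Fh, 2.51 kb for Mdh2, 3.75 kb for Dlat, 8.54 kb for Pdha1, 8.76 kb for Cs and 16.6 kb for Ogdh. Ratios between genes carry the same lengths, while differences between the diet groups do not depend on them.

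The spread within the restricted group was wider than in the normal group for most of the 9 genes. In CPM, Pdha1, Cs, Idh3a, Suclg1, Sucla2 and Fh had a larger SD in restricted livers, whereas Dlat, Ogdh and Mdh2 had a larger SD in normal livers. The share of all genes tested with a larger SD in restricted livers was not counted. Over all genes tested, the chi-square of a pair of libraries over its degrees of freedom was 28.3 to 97.9 within the restricted group. It was 21.4 to 59.9 within the normal group, so the wider spread cannot be called particular to these genes. The mean deviation of the 9 genes from the normal mean was −0.10, −0.25, −0.14, −0.02 and −0.15 on the log2 scale in restricted 1 to 5, against −0.03, 0.02, −0.01, 0.05 and −0.03 in normal 1 to 5. Restricted 2 was the lowest, with 8 of 9 genes below the normal mean. Restricted 4 was the exception in the group, with 6 of 9 genes above the normal mean, although Dlat and Mdh2 were below the normal range there too.

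Beyond the steps named so far, 0 of 10 other subunits of the cycle passed edgeR, with 0 higher and 3 lower (Idh3g, Dlst and Idh3b) at an unadjusted p of 0.05. Of all genes tested, 10.2% were higher and 9.93% lower at that unadjusted threshold. The median log2 fold change of these 10 genes was −0.11, with values from −0.28 for Dlst to 0.065 for Suclg2.

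**Figure D5:**
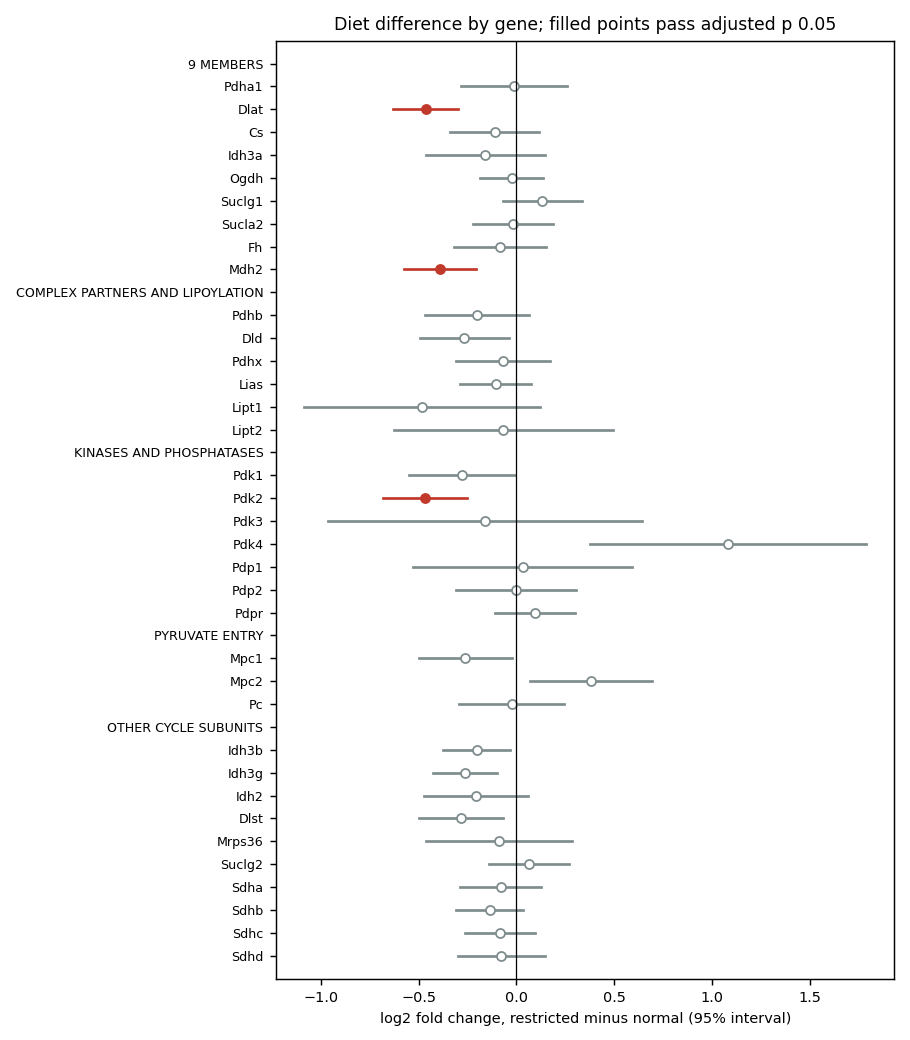
Log2 fold change of restricted minus normal with its 95% interval from edgeR, for the 9 genes and for 4 lists of partner genes in the order of the pathway. Filled points pass an adjusted p of 0.05. These are Dlat, Mdh2 and Pdk2, all to the left of 0.

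Cytosolic counterparts and side branches, which take citrate and malate out of the cycle or return carbon to it, held 2 genes that fell and 0 that rose among 16 tested. Of all genes tested, 2.22% were called lower and 1.87% higher. Acly, which splits exported citrate into acetyl-CoA for lipid synthesis, averaged 127 ± 47.4 CPM in restricted livers and 413 ± 63.0 CPM in normal livers (SD, n = 5 each; edgeR adjusted p 0.00527). Me1, the cytosolic malic enzyme, averaged 41.5 ± 9.51 CPM in restricted livers and 79.9 ± 16.5 CPM in normal livers (SD, n = 5 each; edgeR adjusted p 0.0215, and 0.0598 without normal 4). With Kdm5d as a covariate the log2 fold changes were −2.23 for Acly (edgeR adjusted p 0.0442) and −0.82 for Me1 (edgeR adjusted p 0.292). The diet difference in that fit rests largely on restricted 5. Slc25a1, the carrier that exports citrate from the mitochondrion, averaged 101 ± 19.1 CPM in restricted livers and 145 ± 22.9 CPM in normal livers (SD, n = 5 each; edgeR adjusted p 0.0686; DESeq2 adjusted p 0.0196).

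Mitochondrial genes of neighbouring pathways give the setting. Of 15 genes of mitochondrial beta-oxidation, which supplies acetyl-CoA from fatty acids, 4 rose and 0 fell, with a median log2 fold change of 0.14, and 1.87% of all genes tested were called higher. Hadha and Hadhb, the subunits of the trifunctional enzyme, rose by 0.55 ± 0.12 and 0.78 ± 0.16 on the log2 scale (SE; edgeR adjusted p 0.0234 and 0.0186). Eci2 and Eci1, which handle double bonds of unsaturated fatty acids, rose by 0.45 ± 0.08 and 1.67 ± 0.37 (SE; edgeR adjusted p 0.00880 and 0.0366). The called genes of this list were higher, while the called genes of pyruvate dehydrogenase and the cycle were lower. With 1 library left out, Eci2 passed in all 10 fits. Hadhb missed the threshold without normal 4 or 5, Hadha without restricted 2 or normal 3, 4 or 5, and Eci1 without restricted 2, restricted 5 or any 1 normal library, with adjusted p up to 0.0562, 0.0586 and 0.0909 in that order. With Kdm5d as a covariate the log2 fold changes were 0.49 for Eci2, 0.53 for Hadha, 0.79 for Hadhb and 1.73 for Eci1, and the edgeR adjusted p of the 4 genes was 0.0959 to 0.201.

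Of 6 core subunits of respiratory complex I, which takes up the NADH of the cycle, 1 fell and 0 rose, where 2.22% of all genes tested were called lower. Ndufs8 had a log2 fold change of −0.31 ± 0.08 (SE; edgeR adjusted p 0.0494), and its adjusted p was 0.0524 to 0.128 with any 1 library left out, 0.144 with Kdm5d as a covariate and 0.0508 with limma-voom. Ndufs1 had a log2 fold change of −0.22 ± 0.07 and Ndufv2 of −0.20 ± 0.10 (SE; edgeR adjusted p 0.105 and 0.280). Ndufs1 passed under DESeq2 (adjusted p 0.0108), and the authors' deposited table gave it an adjusted p of 0.00940. Of 12 genes encoded by mitochondrial DNA, 1 passed: Mt-nd4l fell (edgeR adjusted p 0.0171), and all 12 values lay below 0 with a median of −0.27 on the log2 scale. Their summed level was 37179 to 62969 CPM in restricted livers and 48825 to 61373 CPM in normal livers, and its part in the fall of Dlat and Mdh2 was not tested. In restricted 4, which had the highest of these sums, Dlat and Mdh2 were below the normal range as well.

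Of 5 regulators of mitochondrial gene expression, 0 passed edgeR, with 1 higher at an unadjusted p of 0.05. At that unadjusted threshold 10.2% of all genes tested were higher. Ppargc1b, a coactivator of mitochondrial genes, averaged 7.28 ± 1.92 CPM in restricted livers and 3.97 ± 1.79 CPM in normal livers (SD, n = 5 each; edgeR adjusted p 0.122; DESeq2 adjusted p 0.0457). Tfam, which packages and transcribes mitochondrial DNA, averaged 31.5 ± 3.61 CPM in restricted livers and 26.95 ± 2.86 CPM in normal livers (SD, n = 5 each; edgeR adjusted p 0.257). Nrf1, the nuclear respiratory factor, averaged 10.6 ± 1.21 CPM in restricted livers and 9.33 ± 1.55 CPM in normal livers (SD, n = 5 each; edgeR adjusted p 0.487).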

How the data were processed

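Gene expression was measured by RNA sequencing in 10 rat liver libraries, 5 per diet group. The table holds the authors' raw count per gene and the authors' FPKM, per the file headers. The deposited fold change (a ratio), log2 fold change, p-value and adjusted p-value are the authors' own, per the file headers; the sources name no tool for them. Bcl2fastq, fastp, HTSeq and build rn7 are named in the submitters' processing notes, and HISAT2 in the series' design text. The sources do not state gene lengths, annotation, strand setting or how shared reads were counted. RefSeq GRCr8 lists 5 related loci (Dlat-ps1, Mdh2-ps1, Cs-ps1, Fh-ps1 and Fh-ps2), so counts of Dlat, Mdh2, Cs and Fh may include or lose shared reads.

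Counts were fitted over the whole table with edgeR 4.0.16 in R 4.3.3 (filterByExpr with minimum count 10, TMM, robust quasi-likelihood test, two-sided) and Benjamini-Hochberg adjustment over 12367 genes. CPM use TMM-scaled library sizes. Ratios of FPKM (pseudocount 0) were tested by exact two-sided permutation. The fit was tested on simulated data. Counts differed beyond sampling noise within both groups (lowest chi-square of a pair over its degrees of freedom, 21.4). Each library was counted as 1 sample, although this noise check cannot show that the libraries came from separate animals. Alternatives were RLE and upper-quartile factors, DESeq2 1.42.0, limma-voom (limma 3.58.1), no filter, 1 CPM in 5 libraries, a replicate block, leaving out each library and a Kdm5d covariate. The fit of restricted 5 alone was added after the data were seen. The diet difference in the Kdm5d covariate fit rests largely on that same library.

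Named are the 9 genes and the called genes of each partner list. Where fewer than 3 were called, those with the smallest p up to 3 are named. Also named are the genes of the ratios, the 4 kinases and 4 markers of sex. Mt-encoded and cell type genes appear as sums or list counts. 1 further gene of the cycle is not reported here. Genes and lists were chosen with earlier results of these data known.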

Additional observations from a re-analysis of the deposited data

Results flagged for a closer look

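Of 76 groups of 5 libraries (38 named genes in 2 diet groups), 7 had 1 library far from the other 4 by Dixon's gap test, and chance alone gives about 1 in 20. Among the 9 genes, Fh was 158 CPM in restricted 4, against 115 to 123 CPM in the other restricted libraries, and Mdh2 was 195 CPM in normal 2, against 228 to 230.5 CPM in the other normal libraries. Idh3b was 77.3 CPM in restricted 3, against 92.4 to 95.5 CPM in the other restricted libraries. Me1 was 24.7 CPM in restricted 4, against 44.3 to 48.5 CPM in the other restricted libraries. In normal 3, Pdk1 was 34.0 CPM, Pdk4 was 161 CPM and Ndufv2 was 63.2 CPM, against 38.3 to 39.7, 348 to 419 and 72.0 to 73.8 CPM in the other normal libraries.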

How the results depend on the processing

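Of the 9 genes, 2 passed under RLE, upper-quartile factors, DESeq2, limma-voom and both filters, 1 (Dlat) with the replicate block, 0 with Kdm5d as a covariate, and 1 to 2 with each library left out. In restricted 5 alone 0 passed, a fit in which the spread comes from the 5 normal libraries and the lone library is assumed to vary like them, so that this count says nothing of stability. The count over all 12367 genes tested changed between fits as well. It was 506 in the main fit, 1049 with DESeq2, 265 with the replicate block, 118 with Kdm5d as a covariate and 231 without restricted 2. The median log2 fold change of the 9 genes was −0.16 with the Kdm5d covariate and −0.11 to −0.035 with each library left out. With the replicate block, Mdh2 (adjusted p 0.0680), Pdk2 (0.0578), Me1 (0.0720), Hadhb (0.0632), Hadha (0.0568), Eci1 (0.0509) and Ndufs8 (0.112) missed the threshold, and the log2 ratio of Dlat to Pdha1 was −0.43 in a paired test that 5 pairs cannot bring below p 0.0625 (adjusted p 0.25). Same-numbered libraries correlated in their deviations at −0.21 to 0.14, so the numbers were not taken to pair them, and 2 of 5 restricted libraries correlated best with their own number. With each library left out, the log2 ratio was −0.51 to −0.36 for Dlat over Pdha1, −0.13 to −0.041 for Sucla2 over Suclg2 and −0.11 to 0.16 for Idh3a over Idh2, which changed sign. Signs of genes that passed in no fit also changed: Idh3a (0.14), Ogdh (0.030), Mpc1 (0.024), Suclg2 (−0.082) and Pdk3 (0.63) with the covariate, and Idh3a (0.10), Ogdh (0.024), Suclg2 (−0.068) and Pdk3 (0.57) in restricted 5 alone. With 1 library left out they ran from −0.11 to 0.064 for Pdha1, −0.059 to 0.023 for Sucla2, −0.037 to 0.0037 for Ogdh, −0.080 to 0.056 for Pc and −0.42 to 0.045 for Pdk3. Of 722 values of named genes under the alternatives, the fit of restricted 5 alone included, 634 kept their direction and their side of the threshold. Another 56 missed the threshold that their gene passed in the main fit, which only genes called there can do. A further 9 passed it where the main fit did not, and 23 changed sign. The cause of these changes was not tested. Counting error is largest, relative to the value, for the named genes with the fewest counts, Lipt1 and Pdk3.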
